A study of Mus musculus with 30 samples.

Results

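The 8 genes described here encode the receptors for insulin and the insulin-like growth factors and the proteins that dock directly on them: Insr, Igf1r, Igf2r, Irs1, Irs2, Grb10, Grb14 and Gab1. They were chosen by name, with earlier results of these data known. Each name matched 1 of 49089 Ensembl identifiers counted in each of 30 RNA-seq libraries of AML12 cells, a mouse hepatocyte line. The genotypes were Control (non-silencing siRNA), FoxK1 KD, FoxK2 KD and DKD, the last with both knocked down. FoxK1 and FoxK2 are forkhead transcription factors, and knockdown was by transient siRNA transfection, so it was partial and the cells were 1 line. Every culture was serum-starved overnight and then mock-treated (basal, labelled 0 h) or given 100 nM insulin for 6 h. The sources do not say whether basal and insulin samples were harvested at the same time. Each of the 8 groups of genotype and treatment had 4 replicates, except Control insulin and DKD insulin with 3 each. The labels do not say whether replicates were separate cultures, and the study's methods define n only in general, as animals or independent experiments. The p-values therefore measure the spread between these samples, which may be technical.

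The insulin receptor (Insr) and the IGF-1 receptor (Igf1r) are related tyrosine kinases that bind insulin and IGF-1 and phosphorylate docking proteins inside the cell. The main docking proteins in hepatocytes are Irs1 and Irs2, which recruit PI 3-kinase and so carry the signal to AKT. Gab1 is a further docking protein, Grb10 and Grb14 are adaptors that bind the activated receptors and restrain them, and Igf2r (the mannose 6-phosphate receptor) clears IGF-2 without a kinase of its own. When insulin activates AKT, FoxO transcription factors leave the nucleus, and Irs2 is a classical gene that FoxO factors keep active in fasting liver.

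The members lie at 8 loci of GRCm38. Insr spans chr8:3122061-3279617, Irs2 chr8:10984681-11008458 and Gab1 chr8:80764438-80880519, all on the minus strand. Igf1r spans chr7:67952827-68233668 on the plus strand. The remaining loci are on the minus strand: Igf2r at chr17:12682406-12769664, Irs1 at chr1:82233101-82291416, Grb10 at chr11:11930508-12038683 and Grb14 at chr2:64912476-65024987. All are annotated as protein-coding, and the counts cover their exons. RefSeq (GRCm38.p6) lists 9 promoters for 7 of the 8 members, with no entry matched for Insr. Windows from 250 bases before to 50 bases after the start site were searched on both strands for 3 forkhead-type motifs: the canonical GTAAACA, a variant that reads GTAAATA, and the related CAAAACA. The last was found for 3 of these 7 members, Irs1, Irs2 and Gab1, each time as its reverse complement TGTTTTG on the strand of the gene. Igf1r, Igf2r, Grb10 and Grb14 held none of the 3 motifs, and the other 2 motifs had no match in any member's window. Over all 32851 listed promoters, 3.65% held the canonical motif, 3.04% the variant and 6.28% the related motif, which 7.20% of the 27025 genes listed held in at least 1 promoter. The 250 bases before the start site of these 3 genes are shown because they hold a match. They are chr1:82291440-82291689 for Irs1, chr8:11008930-11009179 for Irs2 and chr8:80880480-80880729 for Gab1, read 5′ to 3′ on the minus strand, with the TGTTTTG letters in capitals:
Irs1 promoter: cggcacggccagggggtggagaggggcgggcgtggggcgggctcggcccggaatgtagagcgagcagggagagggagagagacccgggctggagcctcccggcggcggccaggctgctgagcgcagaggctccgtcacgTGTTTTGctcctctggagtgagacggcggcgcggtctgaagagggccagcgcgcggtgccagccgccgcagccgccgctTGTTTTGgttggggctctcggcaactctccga
Irs2 promoter: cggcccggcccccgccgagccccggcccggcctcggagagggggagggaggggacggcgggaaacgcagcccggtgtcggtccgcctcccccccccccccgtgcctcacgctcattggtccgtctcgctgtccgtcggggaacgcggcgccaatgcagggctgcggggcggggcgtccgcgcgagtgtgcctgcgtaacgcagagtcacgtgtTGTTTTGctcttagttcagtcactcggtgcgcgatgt
Gab1 promoter: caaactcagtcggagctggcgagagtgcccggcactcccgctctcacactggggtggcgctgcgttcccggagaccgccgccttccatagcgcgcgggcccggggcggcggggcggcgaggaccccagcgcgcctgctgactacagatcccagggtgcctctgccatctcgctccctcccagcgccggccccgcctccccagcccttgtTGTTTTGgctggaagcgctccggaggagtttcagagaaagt
The Irs1 matches begin 111 and 32 bases before the start site, the Irs2 match 37 bases before it and the Gab1 match 41 bases before it. Gab1 has 2 overlapping promoter entries, and the same match begins 1 base before the start of the other, so it spans that start. A match is a description of the letters and not evidence of binding.

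Sequencing depth was 2141460 to 5668270 counts per library, with a median of 3662235.5. Levels are given as CPM, counts scaled to library size after TMM adjustment, and RPKM is CPM per kilobase of exon. The knockdowns were visible in the targeted genes. Relative to Control at basal, Foxk1 mRNA was 45.2% after its own knockdown and 57.1% after the double one, while Foxk2 mRNA was 33.7% and 35.8%. With insulin these became 58.2% and 64.6% for Foxk1 and 40.4% and 39.5% for Foxk2. The factor not targeted was not always unchanged. In FoxK1 KD, Foxk2 mRNA was 83.5% of Control at basal (edgeR adjusted p = 0.0491) and 85.5% with insulin (0.181). In FoxK2 KD, Foxk1 mRNA was 85.8% at basal (0.441) and 98.8% with insulin (0.998). Foxk1 itself fell with insulin in Control, from 81.2 to 52.9 CPM. Of 11 hepatocyte markers, 10 averaged at least 1 CPM, among them Hnf4a at 134.1 CPM, while Alb averaged only 10.3 CPM. The 11 together ranged from 1537 to 2468 CPM over the libraries. Most of this sum came from the keratins Krt8 (mean 704.5 CPM) and Krt18 (1099 CPM). Apart from these and Hnf4a, the hepatocyte markers averaged from 0.525 (Apoa1) to 36.5 CPM (Foxa2). Cholangiocyte markers were present in every group, with Krt19 high, Epcam at 0 and a summed level of 533 to 1070 CPM for the 4. Their part in the results below was not tested. Markers of macrophages, stellate cells and endothelium were near 0, with Adgre1 and Pdgfrb at 0. The 12 basal libraries of Control, FoxK1 KD and FoxK2 KD stood apart from the other 18: 52 of 11368 tested genes were lower in all 12 than in any of the 18, and 83 were higher. No member separated the sets. DKD against Control, FoxK1 KD or FoxK2 KD at basal and the insulin responses of Control, FoxK1 KD and FoxK2 KD run across this divide, where the divide and the condition cannot be told apart. The other comparisons at basal, the insulin response of DKD and every comparison after insulin lie within 1 set. Control basal replicate 1 lay farthest of the 30 libraries from its group mean, with a root-mean-square deviation of 0.364 in log2-CPM against a median of 0.208.

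Per length of exon, Irs2 was the most abundant member, at a mean of 20.9 RPKM over the 30 libraries. Insr (8.56), Igf2r (8.54) and Igf1r (7.65 RPKM) lay close together, followed by Gab1 (5.65), Irs1 (2.42) and Grb14 (1.30 RPKM). Grb10 was barely detected, with 8 counts in all, 1 in each of 8 libraries. Control basal, FoxK1 KD insulin and DKD insulin had 0 counts, and 3 counts would correspond to 0.529 CPM in the deepest and 1.40 CPM in the shallowest library. These floors cover counting error only. Grb10 did not pass the expression filter, so 7 of the 8 members were tested, and no fold change is given for it. The 7 had 16 (Grb14) to 1195 counts (Irs2) in a library.

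**Figure D1:**
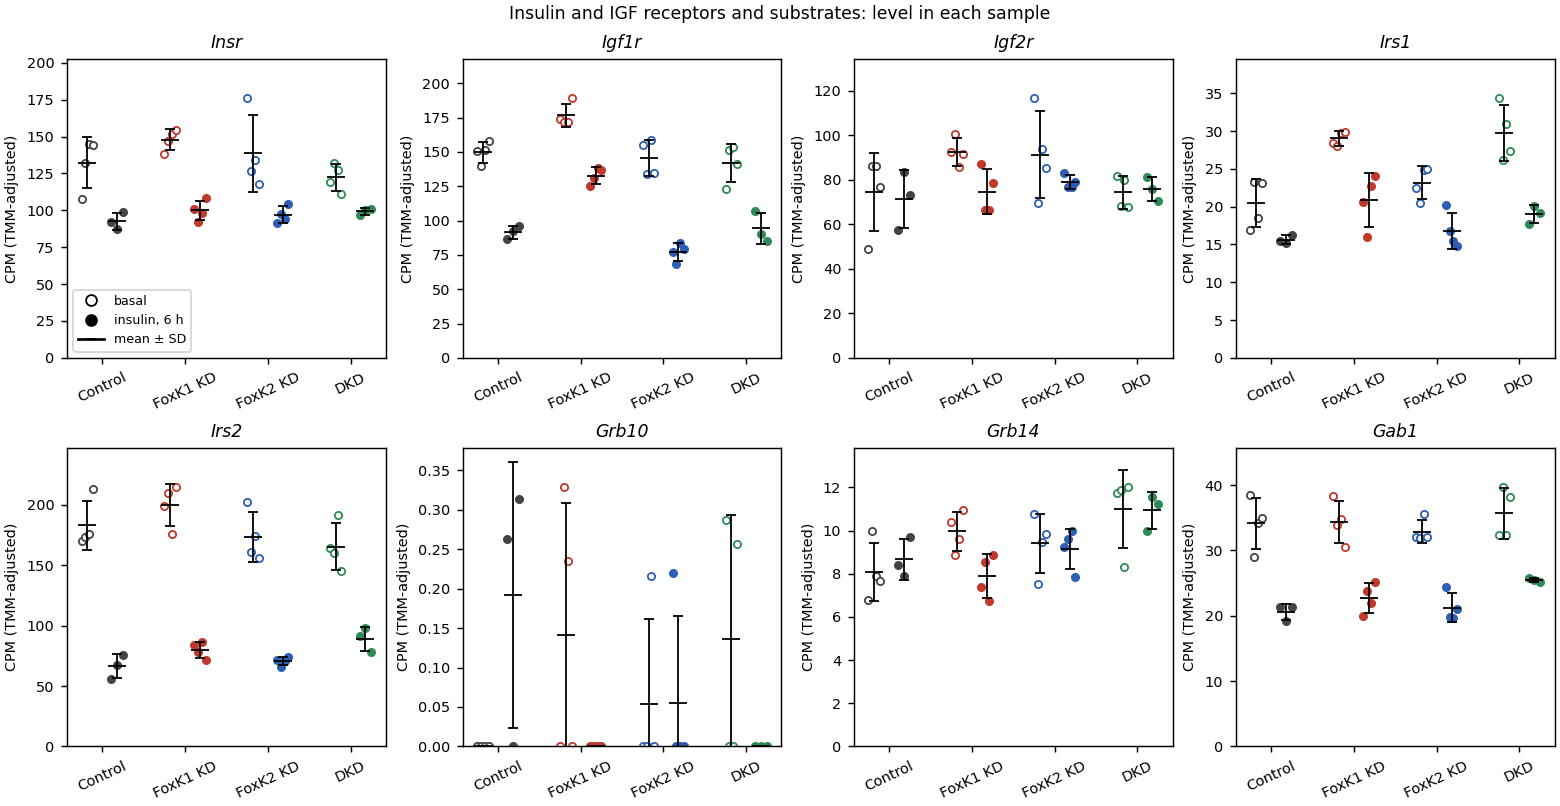
Level of each gene in each of the 30 libraries. The vertical axes give TMM-adjusted CPM from 0, each with its own range, for 4 genotypes. Open points are basal, filled points insulin, and bars are mean ± SD (n = 4, or 3 for Control and DKD insulin). Irs2 fell from 145.0 to 215.1 CPM at basal to 55.8 to 97.7 CPM after insulin, while Grb10 had at most 1 count in a library.

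In Control, mRNA of both kinase receptors and the 3 docking proteins was lower after insulin. By the fit it was 0.759 (Irs1) to 0.362 (Irs2) times the basal level, while Igf2r and Grb14 did not pass the test. This comparison addresses whether 6 h of insulin changes mRNA levels for the proteins that receive the insulin signal. No protein was measured in these libraries. Of the 7 tested members, 5 were lower and none was higher at an adjusted p below 0.05 (edgeR), against 13.1% of all tested genes lower and 12.4% higher. In FoxK1 KD and FoxK2 KD, the count was again 5 lower, with backgrounds of 15.4% and 13.7% lower and 16.2% and 14.4% higher. In DKD it was 4, with 8.0% lower and 8.31% higher. The median log2 fold change of the 7 was -0.52 in Control, -0.48 in FoxK1 KD, -0.51 in FoxK2 KD and -0.49 in DKD, against -0.01 over all tested genes in Control. Basal and insulin libraries did not overlap for 5 members in Control (25% of all tested genes), 6 in FoxK1 KD (31.9%), 5 in FoxK2 KD (30%) and 5 in DKD (28.7%). The 4 responses use different libraries. Those of Control, FoxK1 KD and FoxK2 KD run across the divide of libraries, where insulin and the divide cannot be told apart. The DKD response lies within 1 set. The members were chosen with earlier results of these data known, so these shares describe them and do not test the set.

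Irs2 had the largest response of the 7 members. In Control, its level was 170.0, 173.1, 175.7 and 212.9 CPM at basal and 55.8, 67.8 and 75.9 CPM after insulin. In FoxK1 KD, it was 199.3, 209.7, 175.8 and 215.1 CPM at basal and 83.7, 78.2, 86.6 and 71.8 CPM after insulin. FoxK2 KD cells had 202.3, 161.3, 174.2 and 156.3 CPM at basal and 71.2, 65.8, 70.5 and 73.8 CPM after insulin. Every basal library lay far above every insulin library in these genotypes. In DKD, Irs2 was 164.1, 160.2, 191.6 and 145.0 CPM at basal and 91.7, 97.7 and 78.3 CPM after insulin, again without overlap. The log2 fold change was -1.47 (SE 0.11, adjusted p = 1.01e-11) in Control, -1.32 (SE 0.10, adjusted p = 2.25e-11) in FoxK1 KD and -1.30 (SE 0.10, adjusted p = 1.35e-11) in FoxK2 KD. It was -0.89 (SE 0.11, adjusted p = 5.92e-07) in DKD. After insulin Irs2 was thus at 0.362 times its basal level in Control and 0.54 times in DKD.

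The difference between the DKD and Control responses of Irs2 was 0.58 on the log2 scale (SE 0.16, 95% interval 0.26 to 0.90), with an adjusted p of 0.0523. It missed the threshold, and over the alternative analyses its adjusted p ranged from 0.0114 to 0.181. The value itself ranged from 0.57 to 0.70. Under edgeR it passed on leaving out any 1 of 7 libraries, Control basal replicates 1 and 2, FoxK1 KD basal replicate 3, FoxK2 KD basal replicate 1, DKD basal replicate 3, Control insulin replicate 3 and DKD insulin replicate 3, with values from 0.57 to 0.67 without them. The single knockdowns differed from Control by 0.15 (95% interval -0.17 to 0.46) in FoxK1 KD and 0.17 (-0.14 to 0.48) in FoxK2 KD. The DKD difference runs across the 2 sets of libraries described above. Over all tested genes, the DKD difference in response had a Spearman correlation with GC content of -0.31 (across 11346 genes, which are not independent replicates), and Irs2 has 56.6% GC against a median of 49.3%. With GC and length offsets the difference was 0.70 (adjusted p = 0.0268).

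Igf1r fell in all 4 genotypes. Its level in Control was 150.5, 139.4, 151.4 and 157.6 CPM at basal and 86.3, 92.1 and 96.0 CPM after insulin. In FoxK1 KD it was 173.8, 171.9, 171.5 and 189.2 CPM at basal and 124.9, 131.1, 138.1 and 137.0 CPM after insulin. The FoxK1 KD libraries were thus above their Control counterparts in both states, without overlap. In FoxK2 KD it was 155.2, 134.0, 158.7 and 134.4 CPM at basal and 77.0, 68.0, 83.8 and 79.5 CPM after insulin. DKD libraries had 123.2, 151.2, 153.2 and 140.9 CPM at basal and 107.1, 90.3 and 85.3 CPM after insulin. In every genotype the insulin libraries lay below the basal ones. The log2 fold change with insulin was -0.71 (SE 0.09, adjusted p = 4.46e-07) in Control, -0.41 (SE 0.08, adjusted p = 0.000288) in FoxK1 KD, -0.92 (SE 0.09, adjusted p = 4.82e-10) in FoxK2 KD and -0.59 (SE 0.09, adjusted p = 2.44e-05) in DKD. The FoxK1 KD response differed from that of Control by 0.30 (95% interval 0.05 to 0.55, adjusted p = 0.312), which did not pass.

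Insr fell in 3 of the 4 genotypes by the test. In Control it was 108.0, 131.9, 145.0 and 144.3 CPM at basal and 92.1, 87.3 and 98.8 CPM after insulin. FoxK1 KD had 138.1, 146.8, 151.8 and 154.2 CPM at basal and 100.6, 92.3, 98.4 and 108.5 CPM after insulin. In FoxK2 KD the values were 176.1, 126.8, 133.9 and 117.5 CPM at basal and 91.7, 97.4, 94.4 and 104.6 CPM after insulin. The insulin libraries were lower without overlap in all 3, and the lowest Control basal value was that of replicate 1. The log2 fold changes were -0.52 (SE 0.11, adjusted p = 0.000441), -0.56 (SE 0.10, adjusted p = 5.12e-05) and -0.51 (SE 0.10, adjusted p = 0.000157). In DKD, Insr was 118.9, 132.0, 127.4 and 110.9 CPM at basal and 96.6, 100.4 and 101.0 CPM after insulin, also without overlap. Its log2 fold change of -0.30 (SE 0.11) had an adjusted p of 0.0536, and it passed in 3 of 9 alternative analyses. It also passed on leaving out Control basal replicate 1, FoxK2 KD basal replicates 1 or 4, or DKD basal replicate 4, with values from -0.34 to -0.30 without them. The DKD and Control responses differed by 0.22 (95% interval -0.09 to 0.53, adjusted p = 0.541), so the missed threshold in DKD does not show a different response.

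Gab1 fell in all 4 genotypes. Control had 38.5, 28.9, 34.1 and 34.9 CPM at basal and 21.3, 19.2 and 21.3 CPM after insulin. FoxK1 KD had 38.4, 33.9, 34.7 and 30.5 CPM, then 19.9, 23.8, 22.0 and 25.2 CPM. For FoxK2 KD the values were 32.0, 31.9, 35.6 and 32.0 CPM, then 24.4, 19.8, 19.7 and 21.1 CPM. All basal libraries exceeded all insulin libraries within each genotype. DKD had 32.4, 39.8, 32.3 and 38.2 CPM at basal and 25.8, 25.5 and 25.1 CPM after insulin. The log2 fold change was -0.72 (SE 0.12, adjusted p = 2.74e-05) in Control, -0.60 (adjusted p = 0.000138) in FoxK1 KD, -0.62 (adjusted p = 4.79e-05) in FoxK2 KD and -0.49 (adjusted p = 0.00332) in DKD.

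Irs1, the less abundant of the paired substrates, also fell in each genotype. In Control it was 17.0, 23.2, 18.6 and 23.2 CPM at basal and 15.5, 15.1 and 16.3 CPM after insulin. These groups did not overlap, but the log2 fold change of -0.40 (SE 0.15, adjusted p = 0.0444) was lost in 5 of 9 alternative analyses. Leaving out 1 library gave values from -0.48 to -0.33 and adjusted p from 0.0153 to 0.136. The call was lost without any 1 of 10 libraries, which were Control basal replicates 2 and 4, all 3 Control insulin replicates, FoxK1 KD basal replicates 2 and 4, FoxK2 KD basal replicate 1, FoxK1 KD insulin replicate 1 and DKD insulin replicate 1. FoxK1 KD had 28.4, 28.0, 29.8 and 29.9 CPM at basal and 20.6, 16.0, 22.8 and 24.1 CPM after insulin. FoxK2 KD had 22.5, 20.4, 24.8 and 24.99 CPM, then 20.2, 16.7, 15.4 and 14.8 CPM. DKD had 34.4, 26.1, 30.9 and 27.4 CPM, then 17.8, 20.1 and 19.2 CPM. Basal and insulin libraries were again apart in each of the 3 knockdowns. The log2 fold changes were -0.48 (SE 0.13, adjusted p = 0.00538) in FoxK1 KD, -0.45 (SE 0.13, adjusted p = 0.00913) in FoxK2 KD and -0.65 (SE 0.14, adjusted p = 0.00129) in DKD.

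Igf2r and Grb14 did not pass the edgeR test for insulin in any genotype. Igf2r was 48.9, 86.3, 86.1 and 76.6 CPM in Control basal and 57.6, 83.5 and 73.1 CPM after insulin, which overlap. The Igf2r fold change was -0.07 (95% interval -0.38 to 0.23) in Control, -0.31 (-0.59 to -0.02, adjusted p = 0.0901) in FoxK1 KD, -0.20 (-0.48 to 0.07) in FoxK2 KD and 0.03 (-0.27 to 0.34) in DKD, on the log2 scale. The FoxK1 KD value passed with only the groups compared (adjusted p = 0.0154), with a filter of 1 count in any sample (0.0176) and on leaving out Control basal replicate 1 or FoxK1 KD insulin replicate 1. Across the knockdown groups Igf2r ranged from 66.3 to 116.7 CPM. The Grb14 log2 fold change was 0.10 (-0.26 to 0.46), -0.34 (-0.68 to 0.01), -0.03 (-0.34 to 0.29) and -0.04 (-0.38 to 0.29) in the same order. Grb14 had 16 to 51 counts in a library.

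**Figure D2:**
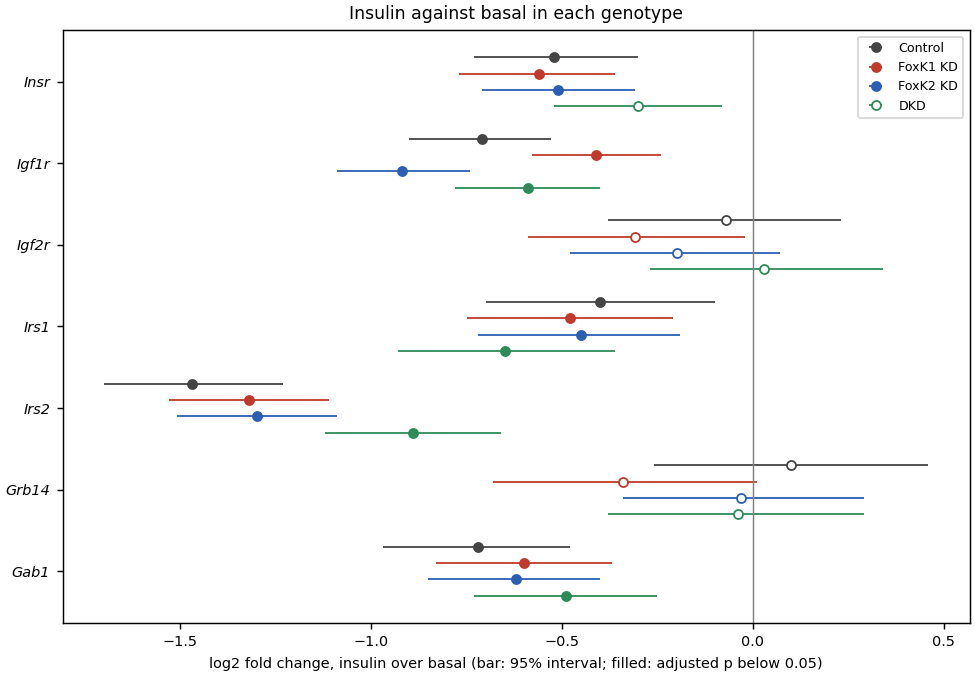
Log2 fold change, insulin over basal, for the 7 tested genes in 4 genotypes, with 95% intervals from edgeR. Filled points have an adjusted p below 0.05 and lie left of 0, with Irs2 farthest out at -1.47 in Control and -0.89 in DKD; the points of Igf2r and Grb14 are unfilled in all genotypes.

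Without insulin, at most 2 of 7 tested members passed against Control in any knockdown, too few to set the members apart from other genes. This comparison asks whether FoxK1 and FoxK2 influence mRNA levels of the receptors and substrates in starved cells. FoxK1 KD raised Irs1 as 1 of 7 tested members (background 8.08% of all tested genes in either direction, 3.40% higher). No member passed in FoxK2 KD (background 0.378%), and 1 member, Igf2r, had an unadjusted p below 0.05 (0.0429), near the 11.2% of all genes that did. In DKD 2 were higher, Irs1 and Grb14 (background 21.1%, 10.3% higher), close to the rate for all genes. With GC and length offsets, Irs2 passed too in DKD, as lower than Control (-0.33, adjusted p = 0.0208, against -0.16 and 0.267 without them). The median log2 fold change of the 7 was 0.24 in FoxK1 KD, 0.06 in FoxK2 KD and -0.01 in DKD. Members whose libraries did not overlap those of Control numbered 2 in FoxK1 KD (Igf1r and Irs1, against 9.96% of all tested genes), 0 in FoxK2 KD (4.66%) and 1 in DKD (Irs1, 18.4%). The 3 comparisons share the 4 Control basal libraries.

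Irs1, given per library above, had 4 FoxK1 KD values (28.0 to 29.9 CPM) and 4 DKD values (26.1 to 34.4 CPM), all above the highest Control value of 23.2 CPM. The log2 fold change was 0.49 (SE 0.12, 95% interval 0.24 to 0.74, adjusted p = 0.0107) in FoxK1 KD and 0.52 (SE 0.13, 0.27 to 0.77, adjusted p = 0.00296) in DKD, or 40.7% and 43.4% higher. Both kept an adjusted p below 0.05 whichever library was left out. When only the groups compared were fitted, the FoxK1 KD call was lost (adjusted p = 0.13). FoxK2 KD differed by 0.17 (-0.08 to 0.42, adjusted p = 0.645) from Control. Set against each other, DKD exceeded FoxK2 KD by 0.35 (adjusted p = 0.0469), as 1 of 7 members against 17.0% of all genes. The call was lost in 5 of 9 alternatives and on leaving out any 1 of 19 of the 30 libraries, with values from 0.26 to 0.39 without them. The 11 whose omission kept it were the 4 of Control basal, FoxK2 KD insulin replicates 1, 3 and 4, FoxK1 KD insulin replicates 2, 3 and 4, and DKD basal replicate 2. By immunoblot, the paper reports that neither single knockdown altered IR or IRS1 expression, which concerns protein and not mRNA.

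Grb14 was 6.79, 9.98, 7.92 and 7.66 CPM in Control basal. In DKD basal it was 11.7, 11.9, 8.31 and 12.04 CPM, so replicate 3 of DKD lay among the Control values. The log2 fold change was 0.47 (SE 0.16, adjusted p = 0.0299). It was lost with DESeq2 (adjusted p = 0.0868), with a filter of 1 count in any sample (0.20) and with only the groups compared (0.127). Without Control basal replicate 1, 3 or 4, or DKD basal replicate 1, 2 or 4, it was also lost, with values from 0.405 to 0.46. Grb14 has 39.4% GC, and over all genes this contrast had a Spearman correlation of 0.47 with GC content. With GC and length offsets the value was 0.71. DKD insulin libraries had 9.97, 11.6 and 11.2 CPM against 8.42, 7.88 and 9.72 CPM in Control insulin, a difference of 0.33 (-0.05 to 0.70, adjusted p = 0.514). FoxK1 KD and FoxK2 KD Grb14 levels ranged from 6.76 to 10.96 CPM over both states.

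Igf1r at basal in FoxK1 KD exceeded Control in 4 of 4 libraries, but the log2 fold change of 0.24 (95% interval 0.07 to 0.40) had an adjusted p of 0.0647. It passed in 1 of 9 alternatives, DESeq2 (adjusted p = 0.0493), and without Control basal replicate 4 (0.0499). With GC and length offsets it shrank to 0.10 (adjusted p = 0.485). After insulin the difference was 0.54 (SE 0.09, 0.35 to 0.73, adjusted p = 0.000595), or 45.3% higher, and it passed in 9 of 9 alternatives and without each library in turn. Igf1r was the only 1 of 7 tested members to pass in FoxK1 KD after insulin (background 3.59%, 1.86% higher), and the 1 whose libraries did not overlap (16.0% of all genes). No member passed in FoxK2 KD (background 0.0264%) or DKD (1.21%) after insulin, and these comparisons share the 3 Control insulin libraries. Libraries did not overlap for 1 member in FoxK2 KD (Igf1r, against 7.27% of all genes) and for 4 in DKD (Irs1, Irs2, Grb14 and Gab1, all higher, against 17.2%). At an unadjusted p below 0.05, 1 member did so in FoxK2 KD (Igf1r, lower, against 6.03% of all genes) and 2 in DKD (Irs2 and Gab1, higher, against 12.7%). The FoxK2 KD value for Igf1r was -0.25 (-0.44 to -0.05, adjusted p = 0.729).

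Between the knockdowns, a comparison added after the data were seen, Igf1r after insulin was 0.79 higher on the log2 scale in FoxK1 KD than in FoxK2 KD (SE 0.09, adjusted p = 2.53e-07), or 72.3% higher. It was 1 of 7 members, against 3.63% of all genes. DKD was lower than FoxK1 KD by 0.49 (adjusted p = 0.00762, background 0.352%), a call lost without DKD insulin replicate 2 (-0.47) or replicate 3 (-0.42). DKD and FoxK2 KD differed by 0.29 (0.10 to 0.48, adjusted p = 0.472, background 0.132%). At basal, Igf1r was 0.28 higher in FoxK1 KD than in FoxK2 KD (adjusted p = 0.0439, 1 of 7 against 4.05%). This was lost in 4 of 9 alternatives and without any 1 of 8 libraries (any FoxK1 KD basal replicate, FoxK2 KD basal replicate 2 or 4, FoxK1 KD insulin replicate 2 or FoxK2 KD insulin replicate 4), with values from 0.24 to 0.30. Across the divide of libraries, DKD at basal was lower than FoxK1 KD for Igf1r (-0.32, adjusted p = 0.00496), Insr (-0.28, adjusted p = 0.0338) and Irs2 (-0.28, adjusted p = 0.0322), 3 of 7 against 26.3% of all genes. With GC and length offsets, the Igf1r and Insr differences shrank to -0.19 and -0.10 and were lost (adjusted p = 0.158 and 0.474), while that of Irs2 was kept. The Insr call was also lost without FoxK1 KD basal replicate 2, 3 or 4 or DKD basal replicate 1 or 4 (-0.29 to -0.24), and the Irs2 call without FoxK1 KD basal replicate 1, 2 or 4 or DKD basal replicate 1, 2 or 4 (-0.29 to -0.24). This contrast had a correlation of 0.60 with GC content.

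Insr, Igf2r and Gab1 did not pass against Control under any knockdown, in either state. At basal, the 95% intervals of the log2 fold change were -0.32 to 0.35 for Insr, -0.29 to 0.58 for Igf2r and -0.26 to 0.28 for Gab1 over the 3 knockdowns. Irs2 in DKD after insulin was 0.42 above Control (0.17 to 0.67, adjusted p = 0.0901), with 78.3 to 97.7 CPM against 55.8 to 75.9 CPM and no overlap. No member's insulin response differed from Control by the edgeR test in any knockdown. Over all genes, edgeR called 0% for FoxK1 KD, 0% for FoxK2 KD and 1.54% for DKD, and 13.3%, 5.5% and 14.6% had an unadjusted p below 0.05. Among the members, that p was met by Igf1r in FoxK1 KD, none in FoxK2 KD and Irs2 in DKD. DESeq2 called 7 genes for FoxK1 KD and 0 for FoxK2 KD, and limma-voom 0 for each.

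**Figure D3:**
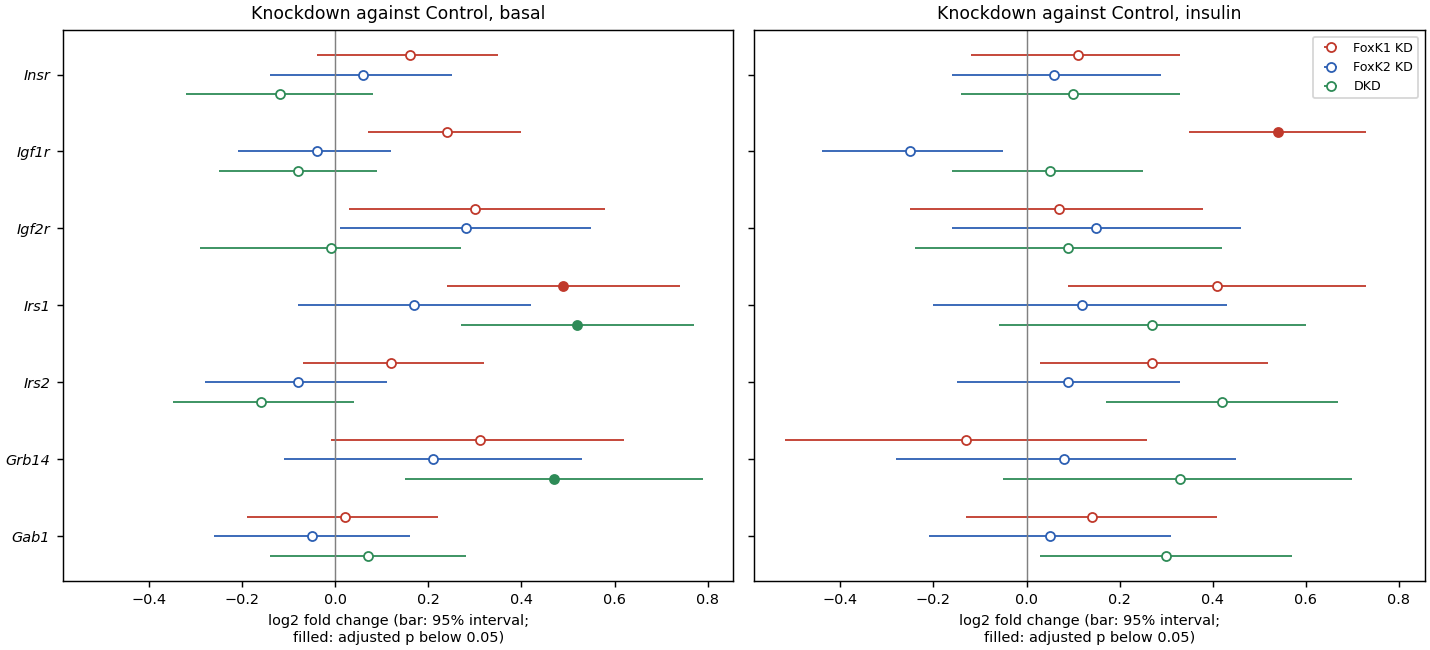
Log2 fold change of each knockdown over Control at basal and after insulin for the 7 tested genes, with 95% intervals. Filled points (adjusted p below 0.05) are Irs1 in FoxK1 KD (0.49) and DKD (0.52) and Grb14 in DKD (0.47) at basal, and Igf1r in FoxK1 KD (0.54) after insulin.

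Orders of the 8 group means show how the members divide. For Insr, Irs2 and Gab1, the 4 basal groups ranked above the 4 insulin groups by mean. There was a gap between the lowest basal and the highest insulin group, with overlapping neighbours on either side. For Insr this gap did not hold for every library: Control basal replicate 1 (108.0 CPM) lay below FoxK1 KD insulin replicate 4 (108.5 CPM). Insr ran from 147.7 ± 7.10 CPM in FoxK1 KD basal (SD, n = 4) to 92.7 ± 5.76 CPM in Control insulin (SD, n = 3). Igf1r was ordered differently. Its FoxK1 KD insulin mean of 132.8 ± 6.08 CPM (SD, n = 4) overlapped DKD basal at 142.1 ± 13.7 CPM (SD, n = 4) and lay clear of DKD insulin at 94.2 ± 11.4 CPM (SD, n = 3). FoxK2 KD insulin was lowest at 77.1 ± 6.65 CPM (SD, n = 4), clear of Control insulin. For Irs1, DKD basal (29.7 ± 3.72 CPM) and FoxK1 KD basal (29.0 ± 0.973 CPM) overlapped at the top, above a gap, and neighbouring groups from FoxK2 KD basal down to Control insulin (15.7 ± 0.599 CPM) overlapped. Among the Igf2r and Grb14 groups, every neighbouring pair overlapped.

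The balance between related members moved with these differences. Per length, Irs2 exceeded Irs1 by a ratio of 13.1 ± 1.60 (SD, n = 4) in Control basal, 9.97 ± 1.01 in FoxK1 KD, 10.9 ± 1.71 in FoxK2 KD and 8.10 ± 0.993 in DKD. Control (10.8 to 14.5) and DKD (6.91 to 8.96) did not overlap. No share of other gene pairs was computed beside this, and the Irs1 difference above comes from the same libraries. DKD against Control at basal runs across the divide of libraries. Over all genes its log2 fold change had a Spearman correlation of 0.47 with GC content. Irs2 has 56.6% GC and Irs1 50.3%. After insulin the ratios were 6.14 ± 0.822 in Control, 5.68 ± 1.13 in FoxK1 KD, 6.16 ± 0.950 in FoxK2 KD and 6.80 ± 0.810 in DKD, with overlapping ranges. The ratio of Insr to Igf1r was 1.02 to 1.16 on average in the basal groups. After insulin it was 0.921 ± 0.0640 in FoxK1 KD, 1.24 ± 0.0739 in Control, 1.30 ± 0.178 in DKD and 1.55 ± 0.165 in FoxK2 KD. The FoxK1 KD libraries (0.861 to 0.984) lay below, and the FoxK2 KD libraries (1.38 to 1.75) above, those of Control (1.16 to 1.30). These ratios are given as descriptions with no test.

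**Figure D4:**
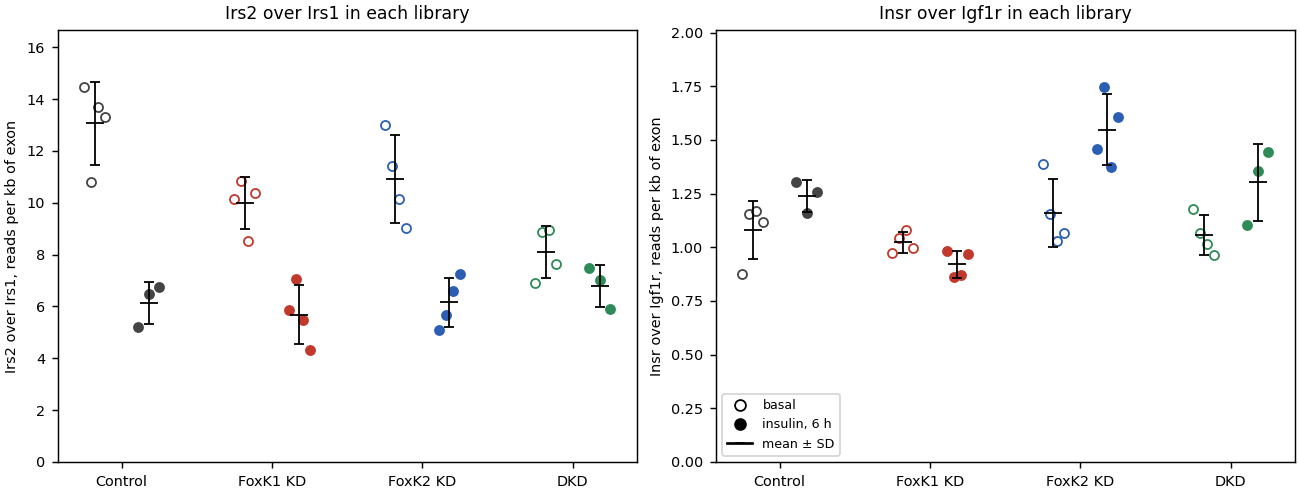
Ratio of Irs2 to Irs1 and of Insr to Igf1r, each in reads per kilobase of exon, in each of the 30 libraries; open points are basal, filled points insulin, bars mean ± SD. Irs2 over Irs1 averaged 13.1 in Control basal and 8.10 in DKD basal, and Insr over Igf1r after insulin averaged 0.921 in FoxK1 KD and 1.55 in FoxK2 KD.

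The rest of the pathway was read from 6 lists, also chosen with earlier results of these data known. With insulin in Control, 13.1% of all tested genes were lower and 12.4% higher. In DKD at basal 10.8% were lower and 10.3% higher, to be read beside each list's counts. Both comparisons run across the divide of libraries. Of the relatives and ligands, 2 of 8 were tested, Gab2 (a docking protein) and Grb7 (an adaptor), and both fell in Control with insulin, by 0.50 (adjusted p = 0.00339) and 0.33 (adjusted p = 0.0213) on the log2 scale. Igf2 had no count, and Igf1, Insrr, Irs3 and Irs4 had 33, 3, 1 and 8 counts over the 30 libraries. In DKD at basal neither passed, with Grb7 at 0.25 (adjusted p = 0.0558) and Gab2 at -0.23 (adjusted p = 0.154). Gab2 was also called lower with insulin in the 3 knockdowns. Grb7 was not called there, and in DKD its mean went from 144.3 to 118.7 CPM.

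All 13 adaptors were tested. With insulin in Control, Dok1 (-0.72, adjusted p = 0.00482) and Nck1 (-0.46, adjusted p = 0.00559) fell and Ptpn11, the phosphatase SHP2, rose (0.22, adjusted p = 0.0353). In DKD at basal 4 were lower and none higher, among them Crk (-0.26, adjusted p = 0.0179), Cbl (-0.40, adjusted p = 0.0213) and Sos1 (-0.40, adjusted p = 0.0231). The list's median log2 fold change was -0.07 with insulin and -0.05 in DKD, against -0.01 and 0.00 over all genes tested. Of 14 genes that restrain the receptors or the signal below them, 13 were tested. Insulin in Control raised Trib3, a pseudokinase that binds AKT (1.55, adjusted p = 4.38e-09), and the receptor phosphatase gene Ptprf (0.37, adjusted p = 0.00824), and lowered Enpp1 (-0.31, adjusted p = 0.0215). Trib3 was called higher with insulin in the other 3 genotypes too. In DKD at basal 1 was higher, Ptprf (0.46, adjusted p = 0.00089), and 3 were lower, among them Enpp1 (-0.38, adjusted p = 0.00398) and Ptpn2 (-0.43, adjusted p = 0.00602). Enpp1 was the 1 gene of the 6 lists whose insulin response differed between DKD and Control (0.62, adjusted p = 0.0224). Of all tested genes, 1.54% were called in this comparison, which runs across the divide of libraries.

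Of 10 PI 3-kinase and AKT genes, 9 were tested. The regulatory subunit genes Pik3r3 (0.79, adjusted p = 3.61e-05) and Pik3r1 (0.50, adjusted p = 5.19e-05) rose with insulin in Control. This was opposite in direction to the docking-protein mRNAs, and the catalytic subunit gene Pik3ca fell (-0.28, adjusted p = 0.0283). Pik3r3 was higher with insulin in all 4 genotypes. It was also higher in FoxK1 KD than in Control, at basal (0.75, adjusted p = 0.000214) and after insulin (0.48, adjusted p = 0.0311). In DKD at basal 1 was higher, Pik3r2 (0.40, adjusted p = 0.00363), while Akt1 and Akt2 were each at 0.21 and did not pass (adjusted p = 0.105 and 0.127). Among 7 genes listed for receptor processing, 5 were tested. Hsp90b1, a chaperone of the endoplasmic reticulum, and Pcsk6, a proprotein convertase, rose with insulin in Control (0.70, adjusted p = 1.17e-08, and 0.63, adjusted p = 0.0102), and Cav1 was at -0.24 (adjusted p = 0.0869). In DKD at basal Pcsk6 was higher (0.61, adjusted p = 0.00905), with Furin at 0.18 and Hsp90b1 at 0.10.

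Of 12 genes known as FoxO targets, 9 were tested. Insulin lowered 4 of them in Control and raised none, with a median log2 fold change of -0.37 against -0.01 over all genes. Depp1 (-2.58, adjusted p = 7.16e-07), Ccng2 (-0.68, adjusted p = 1.81e-05) and Cited2 (-0.39, adjusted p = 0.00552) led, beside the fall of Irs2. In FoxK1 KD 5 fell and 1 rose (15.4% and 16.2% of all genes), in FoxK2 KD 3 fell (13.7%) and in DKD 2 fell (8.0%). The hepatic targets Igfbp1, G6pc and Pck1 had 1, 11 and 22 counts over all libraries and were not tested. In DKD at basal Ccng2 was lower (-0.36, adjusted p = 0.00915), while Klf15 (0.80, adjusted p = 0.0646) and Ppargc1a (-0.23, adjusted p = 0.0668) did not pass.

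Across the 30 libraries, the members' log2-CPM values were most alike for Insr and Irs2 (Pearson r = 0.90), Irs2 and Gab1 (0.89) and Igf1r and Irs2 (0.85), and Grb14 was least like the others (-0.03 to 0.38). These are descriptions over libraries of 8 groups, among which treatment, genotype and depth vary for all genes at once. Of all tested genes, the nearest to Irs2 were Fbxo32 (r = 0.97), a ubiquitin ligase gene that went from 80.1 to 22.2 CPM in Control with insulin, and Sh3d19 (0.96). Nearest to Igf1r were Axl (0.95), a receptor tyrosine kinase, and Ifit3 (0.93). The pairs for the rest were Zfp704 (0.93) and Bicc1 (0.92) for Insr, Irf2bpl (0.93) and Serpinb6b (0.93) for Gab1, and Lbp (0.91) and Iqsec1 (0.89) for Irs1. Igf2r was nearest to Maml2 (0.83) and Jmjd1c (0.81), and Grb14 to Ephx2 (0.67) and Tnip1 (0.63).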

How the data were processed

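Poly(A) RNA of 30 AML12 samples was sequenced. Per the submitters' processing notes, the tools were CASAVA 1.8, STAR 2.4.2a and featureCounts with GRCm38.p4. The authors deposited raw counts of reads per gene, not normalized. The annotation, strand setting and treatment of reads with several matches are not given in the sources used here. Groups and replicates came from the labels. Identifiers were matched without their version to GENCODE M21 (48435 of 49089 found). Genes passing edgeR's filterByExpr (11368) were normalized by TMM and tested in 1 model of the 8 groups with the quasi-likelihood test (edgeR 4.0.16, R 4.3.3), with Benjamini-Hochberg adjustment over all of them and an adjusted p below 0.05 as the threshold. Standard errors were the absolute log2 fold change over the square root of F. All 8 members, Foxk1 and Foxk2 were named, with up to 3 genes of each list by lowest p in DKD against Control at basal and in the insulin response of Control, and the 2 nearest genes of each member by Pearson r. Further list genes (Trib3 and Enpp1 differences, Pik3r3 in FoxK1 KD) were named after their values were seen. The members and lists were chosen with earlier results of these data known. Alternatives were DESeq2 1.42.0, limma-voom (limma 3.58.1), other filters and size factors, offsets for GC and length, a replicate block, other thresholds, fitting only the groups compared and leaving out each sample. Comparisons between knockdowns were added after seeing the data. The steps were tested on simulated data. Libraries of a group were compared in 42 pairs. The chi-square of their counts was at least 1.75 times its degrees of freedom, so none was a copy of another.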

Additional observations from a re-analysis of the deposited data

Results flagged for a closer look

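In 42 checks of a gene within a group of 4 libraries, 4 found 1 library far from the other 3, where chance gives about 1 in 20. Igf1r in FoxK1 KD basal was 189.2 CPM in replicate 4 and 171.5 to 173.8 CPM in the others. Irs2 in Control basal was 212.9 CPM in replicate 4 and 170.0 to 175.7 CPM in the others. Grb14 in DKD basal was 8.31 CPM in replicate 3 and 11.7 to 12.04 CPM in the others. Gab1 in FoxK2 KD basal was 35.6 CPM in replicate 3 and 31.9 to 32.0 CPM in the others.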

How the results depend on the processing

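Over 4 comparisons, the numbers of member tests passing were 3 of 21 for knockdown at basal, 19 of 28 for insulin, 1 of 21 for knockdown after insulin and 0 of 21 for a difference in insulin response. With only the groups compared, the basal count became 1. Among all genes, this setting called 31 higher and 15 lower of 10801 in FoxK1 KD at basal. It called 0 and 1 of 10786 in FoxK2 KD and 636 and 664 of 10770 in DKD. The counts became 6 (basal), 4 (after insulin) and 1 (difference) at an adjusted p below 0.25, with 22 for insulin. At that threshold the shares of all genes were 26.6%, 3.60% and 43.5% at basal for FoxK1 KD, FoxK2 KD and DKD, 15.1%, 0.238% and 6.67% after insulin and 3.40%, 0% and 9.88% for the difference, and 37.3% to 54.1% for insulin. At an adjusted p below 0.05 with a fold above 1.5, the counts were 0 (basal), 11 (insulin) and 0 (after insulin). The shares of all genes at this cut were not computed, so these counts have no background beside them. The difference count was 1, for Irs2 in DKD, with DESeq2, with a filter of 1 count in any sample, with GC and length offsets, and with these offsets and the replicate block. Among all genes, the DKD difference was called higher for 151 and lower for 83 of 11368 with DESeq2. It was called for 274 and 85 of 23784 with the filter, 68 and 47 of 11368 with the offsets, and 64 and 46 with offsets and block. Leaving out each sample gave a difference count of 0 to 1. The basal count was 4 with GC and length offsets, where Irs2 in DKD passed (-0.33). Of all 11368 genes, these offsets gave 413 higher and 570 lower in FoxK1 KD at basal. They gave 56 and 61 in FoxK2 KD and 798 and 1033 in DKD. Same-numbered samples did not deviate together on average (mean correlation -0.013 over 99 pairs, 0.004 over 294 others). These pairs pool all combinations of groups, so the mean cannot decide whether basal and insulin samples of 1 genotype were paired. With the replicate block the counts were 3, 18, 1 and 0, and the Irs2 difference with both offsets and block had an adjusted p of 0.0431. Of all 11368 genes, the block called 345 higher and 483 lower in FoxK1 KD at basal. It called 20 and 12 in FoxK2 KD and 1122 and 1175 in DKD. For insulin these were 1322 and 1387 in Control, 1816 and 1694 in FoxK1 KD, 1586 and 1512 in FoxK2 KD, and 887 and 852 in DKD. After insulin, FoxK1 KD had 184 and 147, FoxK2 KD 1 and 1, and DKD 86 and 31. The DKD difference had 87 and 51. Between knockdowns at basal, DKD against FoxK2 KD passed for Igf2r with a filter of 1 count (-0.32) and with only the groups compared (-0.31), and likewise against FoxK1 KD (-0.34 and -0.32), and Grb14 passed with GC and length offsets (0.50 over FoxK2 KD, 0.47 over FoxK1 KD). No value that passed changed direction under any alternative (0 of 1170). Values near 0 did: Grb14 with insulin in FoxK2 KD was 0.091 with GC and length offsets and 0.090 with the replicate block added. Leaving out 1 sample, it ran from -0.126 to 0.034, Grb14 in DKD from -0.128 to 0.021, Igf2r with insulin from -0.228 to 0.056 in Control and from -0.022 to 0.088 in DKD, and the Igf2r difference between DKD and Control from -0.024 to 0.259. Over the other settings, 402 of 423 recomputed values of the design's comparisons kept their direction and side of the threshold, as did 91 of 108 of the comparisons between knockdowns, where 13 calls were lost. Causes were not tested. Depth limits Grb14 and Irs1 most, at 16 to 130 counts in a library, and leaves Grb10 without a test.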
